A study of Mus musculus with 4 samples.

Results

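The proteins of the cytosolic ribosome were followed in endothelial cells (ECs) of the dura mater, the tough sheet of the meninges under the skull, and in ECs of the brain parenchyma. Members were chosen by symbol alone: names that begin with Rpl or Rps and a digit, together with Rplp0, Rplp1, Rplp2 and Rpsa, without "-ps" pseudogenes and without the Rps6k kinases. This gave 88 of the 23282 entries in the count tables. They were 43 proteins of the 60S subunit, 31 of the 40S subunit, the 3 stalk proteins, 10 paralogs or retrocopies, and Rps19bp1, which carries the prefix but encodes a binding partner of Rps19 and no subunit protein. All cells were from mice of the C57BL/6J strain, aged 8 weeks, with no injury, treatment or transgene named in the labels, and each tissue had 2 libraries, called brain replicates 1 and 2 and dura mater replicates 1 and 2. Per the study's methods, dissociated tissue was treated to lyse red cells, and ECs were sorted with antibodies to CD31, CD45 and TER-119. The brain cells alone first passed a magnetic enrichment for CD31, so this step and the tissue cannot be told apart. The libraries were QuantSeq libraries, which read the 3′ end of polyadenylated RNA, so a count is a 3′ read and was not divided by transcript length. Whether replicates came from separate mice is not given in the sources used here, so p-values measure the spread between libraries, which may be technical.

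A ribosome carries 1 copy of most of its proteins, and cells make these proteins in matched amounts. The 40S subunit decodes the mRNA, the 60S subunit joins the amino acids and holds the tunnel through which the new chain leaves, and the stalk on the 60S subunit recruits the elongation factors. In vertebrates most of these mRNAs begin with a C followed by a run of pyrimidines, the 5′ terminal oligopyrimidine (TOP) tract, through which mTOR signaling and the protein LARP1 set how much of the mRNA is translated. The level of an mRNA in these libraries therefore says nothing of how much protein was made.

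A start of each of 9 member genes is shown because of this shared element. Each line gives 15 bases before and 15 from an annotated start on, in the gene's own direction, from RefSeq on build GRCm38.p6. The longest run of a C and at least 4 further pyrimidines near the start is in capitals. For a gene with several RefSeq starts, the first start with such a run was printed where there was any. The lines thus do not say how common a run is among the starts of these genes.
Rplp2, chr7:141447636-141447665, plus strand: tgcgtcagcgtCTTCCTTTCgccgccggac
Rpl28, chr7:4792950-4792979, plus strand: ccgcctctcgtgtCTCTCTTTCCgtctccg
Rps24, chr14:24490663-24490692, plus strand: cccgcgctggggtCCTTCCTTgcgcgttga
Rps21, chr2:180257364-180257393, plus strand: taccgaggacccgCCCTCCTgcccaatagt
Rpl38, chr11:114668565-114668594, plus strand: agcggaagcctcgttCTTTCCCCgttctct
Rpl22l1, chr3:28805493-28805522, plus strand: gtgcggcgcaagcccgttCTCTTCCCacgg
Rps27, chr3:90213634-90213663, minus strand: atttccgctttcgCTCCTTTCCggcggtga
Rps27rt, chr9:114982725-114982754, minus strand: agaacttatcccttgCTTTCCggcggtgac
Rpl4, chr9:64173372-64173401, plus strand: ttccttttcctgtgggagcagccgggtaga
In Rpl4 no such run begins within 10 bases of the RefSeq start. The GENCODE M21 gene record of Rpl4 begins 12 bases further upstream, at 64173375, and there a C opens a run of 8 pyrimidines. Such a record is bounded by the outermost of a gene's transcripts, and only a C at the bound itself was looked for. The bounds of Rplp2, Rpl28, Rps24, Rpl38 and Rpl22l1 lay 56 to 3553 bases upstream of the RefSeq starts printed. They fell outside the printed windows and were not searched. That of Rps27 lay 3 bases upstream, at the g just before the run in capitals. At those of Rps21 and Rps27rt a C opens a run of 7 and 6 pyrimidines. For Rpl4, whether a run is found thus depends on the start used. Of 67 members with an entry in the RefSeq promoter table, 40 (59.7%) held such a run, against 34.4% of all 27025 genes in the table. For this and the motifs below, a gene was counted if any of its starts matched. CTTTC, read on the gene's strand from 20 bases before to 50 after the start, was in 49.3% of members and 10.4% of all genes, a search added after the windows had been seen. It can overlap the run just described. CCGGAA, the core letters of ETS factor sites, was found on either strand of the 300-base promoter in 53.7% of members and 16.7% of all genes. TATAA on the gene's strand was in 23.9% and 20%. A match of letters is a description of the window and not evidence that a factor binds there.

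Ribosomal protein mRNAs took a larger share of the counts in both dura mater libraries than in either brain library. The share was 2.57% (95% Wilson interval 2.57 to 2.58) and 2.74% (2.73 to 2.75) in brain replicates 1 and 2, and 4.01% (4.002 to 4.023) and 3.80% (3.79 to 3.81) in dura mater replicates 1 and 2. Means were 2.66% ± 0.116 for brain ECs and 3.90% ± 0.152 for dura mater ECs (SD, n = 2), a ratio of 1.47. The tissues did not overlap, and the difference of 1.25 percentage points was larger than either SD. An exact two-sided permutation test gave p = 0.333, the smallest value that 2 libraries against 2 can give. The intervals cover counting error only. In bulk samples such as these, a different mix of cells and a different amount of the mRNA per cell cannot be told apart.

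**Figure D1:**
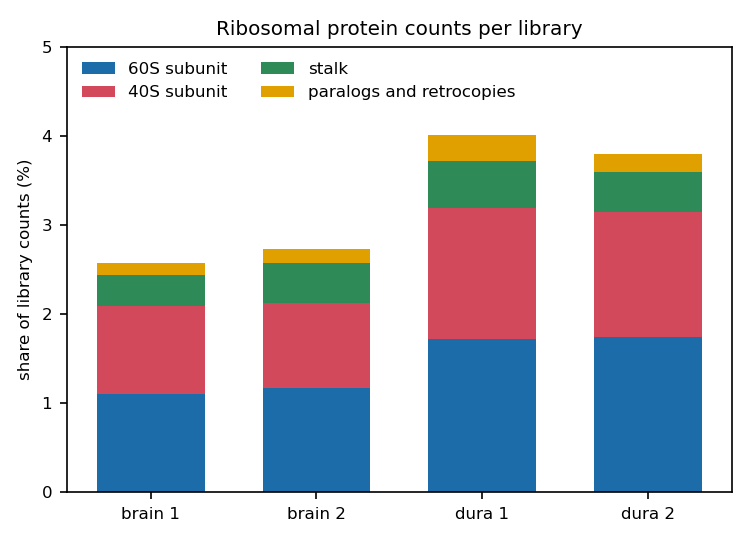
Share of all counts (percent, vertical axis) taken by ribosomal protein genes in each of the 4 libraries, stacked by subunit, stalk and paralogs. Both dura mater bars reach about 4% and both brain bars stay under 3%, while the stalk layer is similar in brain replicate 2 and dura mater replicate 2.

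Both subunits had similar ratios by this measure. The 60S proteins held 1.10% and 1.18% of counts in the brain libraries against 1.73% and 1.74% in those of the dura mater, a ratio of 1.52. The 40S proteins held 0.990% and 0.952% against 1.46% and 1.41%, a ratio of 1.48. The stalk proteins held 0.352% and 0.446% in brain ECs against 0.532% and 0.446% in those of the dura mater, and these libraries overlapped. The paralogs held 0.131% and 0.163% against 0.291% and 0.202%. Fau, which encodes a ubiquitin-like fusion of the 40S subunit, and Gnb2l1, the 40S scaffold RACK1, have symbols outside the rule. Both dura mater libraries were higher for each, with log2 fold changes of 1.15 (SE 0.50) and 0.71 (SE 0.39) in the test described next.

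Each gene was then tested by itself with edgeR's quasi-likelihood test over the 9347 genes that passed the filter on low counts. Of the members 85 passed. Rpl3l, known from muscle, and Rpl10l and Rpl39l, known from testis, did not, with at most 2 counts in any library. No member differed at an adjusted p under 0.05, whereas 57 of all genes did (0.610%). At an unadjusted p under 0.05, 6 members were higher in dura mater ECs and 0 lower, beside 7.04% and 2.97% of all genes. These 6 were Rpl4, Rps24, Rpl28, Rps21, Rps20 and Rps2, and 6 of 85 is near the background. DESeq2 called Rpl4 alone (8.43% of all genes were called higher), and limma-voom called 0 (0.856% of all genes in either direction). With its newer dispersion estimate edgeR called Rpl4 and Rps24 (1.93% of all genes higher).

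The direction was shared more widely than single tests could show. The log2 fold change, dura mater over brain, was above 0 for 76 of 85 members (89.4%), compared with 49.8% of all genes tested. Its median was 0.57 (quartiles 0.33 and 0.85), which is 1.49-fold, while the median over all genes was -0.01. The values ran from -0.99 to 2.22: 16 members were above 1, 37 from 0.5 to 1, 23 between 0 and 0.5, and 9 below 0. Both dura mater libraries exceeded both brain libraries for 56 members (65.9%), beside 26.2% of all genes, and both brain libraries were higher for 3 members, beside 16.9%. The libraries overlapped for the other 26. The median was 0.56 in the 40S subunit and 0.57 in the 60S subunit. SEs of single members had a median of 0.49 and ranged from 0.28 to 3.25, so most single values lay within 2 SEs of 0.

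**Figure D2:**
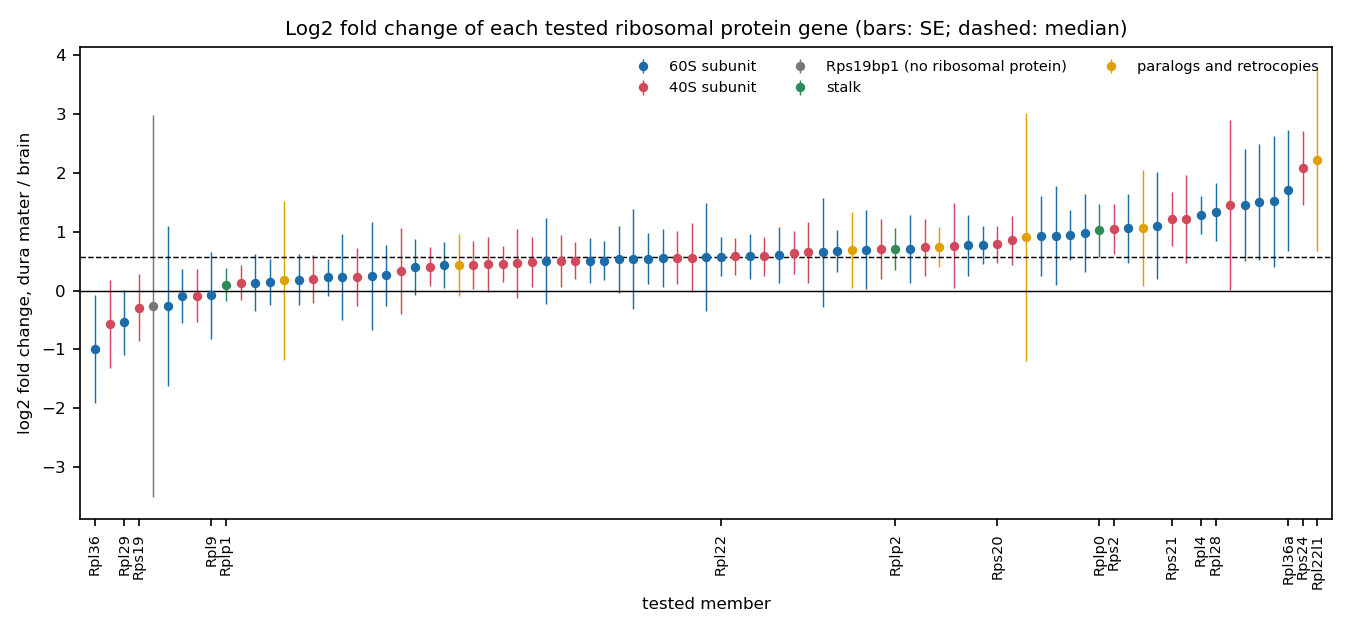
Log2 fold change (dura mater over brain) of each of the 85 tested ribosomal protein genes in rising order, colored by class, with the 16 members of the plot of CPM named on the axis, with bars of 1 SE from edgeR's fit and the median dashed at 0.57. 76 points lie above 0, and the long bars belong to genes whose replicates differed widely, such as Rps19bp1 and Rpl7l1.

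Members agreed better between replicates than most genes did. Replicates lay more than 1 apart in log2(CPM + 1), where CPM is the count scaled to a common library total and adjusted by edgeR's TMM factors, for 21 members in brain ECs and for 5 in those of the dura mater. Over all genes these shares were 56.4% and 52.5%. The biological coefficient of variation had a median of 0.499 over members and 1.38 over all genes. Low counts were common in the background: 48.0% of tested genes fell to 7 counts or fewer in some library, whereas Rps19bp1 was the only such tested member. That share includes genes that were low in both libraries of a tissue.

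A closer reference is the set of genes that reached 64 counts in all 4 libraries. It held 83 members and 4183 other genes. Of the members 75 (90.4%) had a log2 fold change above 0, with a median of 0.57, and of the other genes 43.1% did, with a median of -0.18 (quartiles -0.86 and 0.50). Dura mater libraries were higher without overlap for 67.5% of the members and 18.9% of the others, and brain libraries for 3.61% and 25.1%. In the same set the 23 mitochondrial ribosomal proteins had a median of -0.51 with 9 above 0, and 25 proteasome genes had a median of -0.12 with 12 above 0. Neither of these other large complexes had a median above 0, and their difference from the cytosolic ribosomal proteins was not tested. In this fixed set the members' median was 0.52, 0.55, 0.33 and 0.58 without brain replicate 1, brain replicate 2, dura mater replicate 1 and dura mater replicate 2, and that of the other genes was -0.14, -0.14, -0.37 and -0.21.

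**Figure D3:**
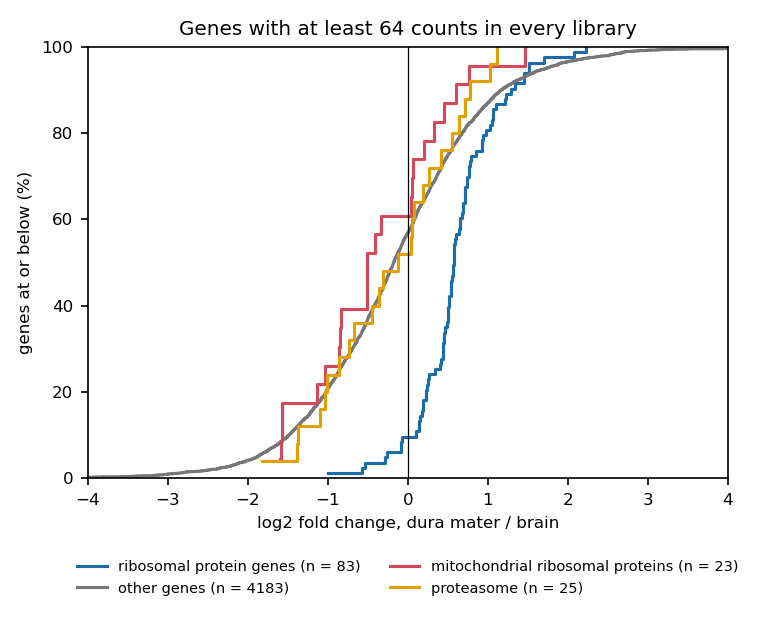
Cumulative share of genes (percent, vertical axis) at or below each log2 fold change (dura mater over brain), for genes with at least 64 counts in every library. Over most of its length the curve of the 83 ribosomal protein genes lies to the right of those of 4183 other genes, 23 mitochondrial ribosomal proteins and 25 proteasome genes, meeting that of the other genes near the top, and it crosses 0 near 10%.

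The shift held in each pairing of a dura mater with a brain library. In this well-counted set the members' median difference in log2(CPM + 1) was 0.69 for dura mater replicate 1 over brain replicate 1, 0.61 for dura mater replicate 2 over brain replicate 1, 0.50 for dura mater replicate 1 over brain replicate 2, and 0.45 for dura mater replicate 2 over brain replicate 2. The other genes had medians of -0.10, -0.15, -0.11 and -0.17 in the same order. Between replicates the members' medians were 0.13 in brain and -0.06 in dura mater. Which members differed most was not shared in this way. Across the 85 tested members, Spearman's rho between the differences of the first and of the second replicates was -0.077, and with the replicates crossed it was 0.046. Such correlations are across genes and carry no p.

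**Figure D4:**
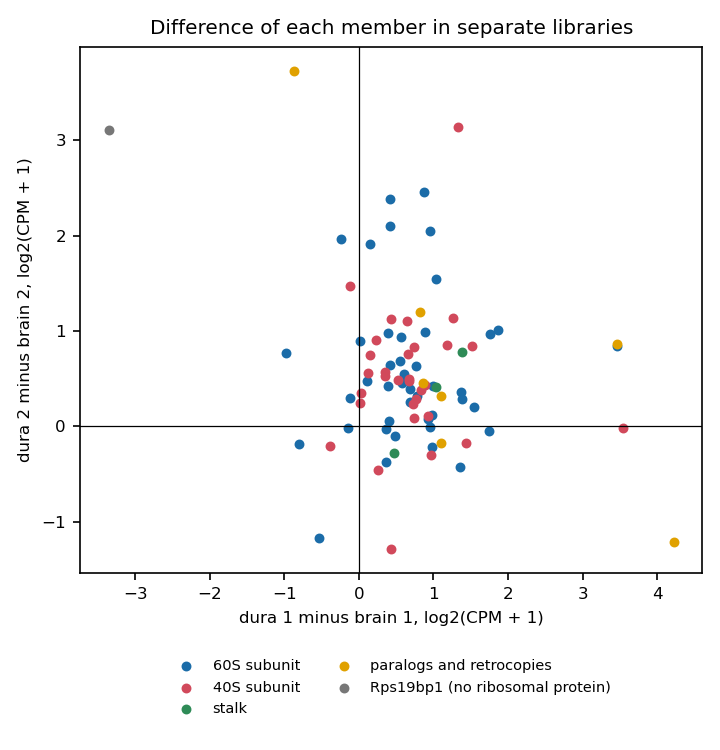
Difference in log2(CPM + 1) of each tested member between dura mater and brain in the first replicates (horizontal axis) and in the second replicates (vertical axis). Of 85 members 60 lie above 0 on both axes and 4 above 0 on neither, and within the cloud the members have no common order (rho -0.077).

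Among the large-subunit proteins, Rpl4 had the smallest p of all members. Rpl4 lines the wall of the exit tunnel, lies at chr9:64173375-64178666 on the plus strand (GRCm38, GENCODE M21), and shares none of its 3′ end with another gene. Its level was 558 and 464 CPM in brain replicates 1 and 2, and 1143 and 1358 CPM in the dura mater replicates. The groups were far apart relative to their replicates, and the log2 fold change was 1.29 (SE 0.32), with an adjusted p of 0.257 in edgeR. With all 4 libraries, DESeq2 gave an adjusted p of 0.024, limma-voom 0.074, and edgeR with replicate number as a block 0.101. Rpl28, which has no counterpart in budding yeast, was at 101 and 156 CPM in brain ECs and at 343 and 306 CPM in dura mater ECs. Its log2 fold change was 1.34 (SE 0.49), with an edgeR adjusted p of 0.466. Of the runs in capitals above, each opened by a C, that of Rpl28 is the longest.

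The other large-subunit members chosen by the size of their difference had lower counts and wider errors. Rpl36a was at 13.2 and 76.4 CPM in brain ECs and at 155 and 137 CPM in those of the dura mater (a log2 fold change of 1.70, SE 1.03), and the log2 fold change was 0.89 without brain replicate 1 and 3.40 without brain replicate 2. Rpl17, next to the tunnel exit, was at 37.9 and 24.9 CPM against 74.1 and 106 CPM (1.52, SE 1.11). Rpl23a, where factors that receive the new chain dock, was at 59.3 and 21.2 CPM against 109 and 120 CPM (1.51, SE 0.99), with 0.89 and 2.38 as its values without brain replicates 2 and 1. In all of these the dura mater libraries were both higher, and in Rpl36a and Rpl23a the brain replicates were more than 2-fold apart. Rpl35a, mutated in some patients with Diamond-Blackfan anemia, was at 32.6 and 46.1 CPM against 122 and 94.1 CPM (1.45, SE 0.95). Rpl5 and Rpl11, which bind the 5S rRNA and can hold MDM2 when ribosome assembly is disturbed, were also higher in both dura mater libraries, by 0.54 (SE 0.44) and 0.50 (SE 0.73) on the log2 scale. Rpl32 was at 327 and 109 CPM against 439 and 471 CPM (1.06, SE 0.59), and left-out libraries moved this to between 0.41 and 2.01. Rpl3, at the peptidyl transferase center, was at 102 and 25.9 CPM against 136 and 139 CPM, so that brain replicate 1 lay much closer to the dura mater than brain replicate 2 did. Its log2 fold change of 1.11 (SE 0.91) was 0.37 without brain replicate 2 and 2.36 without brain replicate 1. Rpl10, which joins last and is needed for the subunits to meet, was at 125 and 241 CPM against 330 and 295 CPM (0.77, SE 0.51).

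In the small subunit the largest difference was that of Rps24, another gene of Diamond-Blackfan anemia (chr14:24487125-24496959, plus strand, GRCm38). It was at 135 and 48.6 CPM in brain ECs and at 341 and 436 CPM in dura mater ECs. The log2 fold change was 2.08 (SE 0.63), from 1.46 without brain replicate 2 to 2.94 without brain replicate 1. The edgeR adjusted p was 0.371. With all 4 libraries, DESeq2 gave an adjusted p of 0.056, limma-voom 0.118, and edgeR with replicate number as a block 0.092. In the transcript used for Rps24, the last 300 bases share no 50-base stretch with another annotated gene. Rps21 was at 159 and 164 CPM against 458 and 295 CPM (1.22, SE 0.46). Rps20, in the head of the subunit, had close replicates in both tissues, at 538 and 514 CPM against 901 and 914 CPM (0.79, SE 0.32). Rps2, near the mRNA entry channel, was at 339 and 255 CPM against 769 and 459 CPM (1.05, SE 0.43). For Rps21, Rps20 and Rps2 edgeR's adjusted p was 0.466. Rps13 was at 74.0 and 51.3 CPM against 179 and 114 CPM (1.22, SE 0.75), and Rps26, like Rps24 a gene of Diamond-Blackfan anemia, at 279 and 190 CPM against 437 and 411 CPM (0.85, SE 0.42). Rps6, the substrate of the S6 kinases, differed less, at 206 and 165 CPM against 229 and 277 CPM (0.45, SE 0.47). Rps27a, a ubiquitin fusion, was at 254 and 226 CPM against 432 and 276 CPM (0.56, SE 0.45).

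The stalk proteins had unlike values. Rplp0, the base of the stalk, was at 177 and 320 CPM in brain ECs and at 466 and 548 CPM in dura mater ECs, with a log2 fold change of 1.03 (SE 0.45) and an edgeR adjusted p of 0.469. Rplp2 was at 384 and 531 CPM against 788 and 709 CPM (0.71, SE 0.36). Rplp1, its partner in the dimers of the stalk, was at 2952 and 3808 CPM against 4104 and 3139 CPM (0.10, SE 0.28), and here the tissues overlapped. Rpsa, the 40S protein also known as the laminin receptor precursor, was at 95.6 and 172 CPM against 183 and 185 CPM. Its brain replicate 2 lay just under both dura mater libraries (0.46, SE 0.58).

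Of the members 9 had log2 fold changes below 0, and for 3 of them both brain libraries were higher. Rpl29, which mice can live without, was at 241 and 152 CPM in brain ECs and at 137 and 134 CPM in dura mater ECs (-0.54, SE 0.55). Rps19, the gene most often mutated in Diamond-Blackfan anemia, was at 150 and 168 CPM against 115 and 145 CPM (-0.29, SE 0.57). Rpl9 was nearly flat over the 4 libraries, at 103 and 96.2 CPM against 92.6 and 95.3 CPM (-0.08, SE 0.74). Each of these differences was smaller than its SE. The lowest value was that of Rpl36, at 62.7 and 194 CPM against 43.0 and 85.8 CPM (-0.99, SE 0.92), and its libraries overlapped, as did those of Rps28 (-0.57, SE 0.74). Over 50% of the 3′ 50-base stretches of Rpl29, Rps19 and Rpl9 also occur in other annotated genes, chiefly pseudogenes (51.8%, 56.6% and all of them). The same holds for 44 tested members, 40 of them above 0.

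Some abundantly read members were also steady. Rps9 was at 1153 and 1180 CPM in brain ECs and at 1162 and 1401 CPM in dura mater ECs (0.14, SE 0.29). Rps18 was at 292 and 276 CPM against 297 and 353 CPM, and Rpl34 at 673 and 827 CPM against 895 and 860 CPM. Rpl7 was at 283 and 267 CPM against 365 and 262 CPM. With Rpl9 and Rplp1 these had the smallest range of log2 CPM over the 4 libraries among the tested members. The log2 fold changes of Rps9, Rplp1 and Rpl7 turned sign when 1 library was left out, and those of Rps18 and Rpl34 stayed above 0. Over all tested members, 63 were above 0 in each of the 4 fits that left out a library, 4 were below 0 in each, and 18 changed sign in at least 1.

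**Figure D5:**
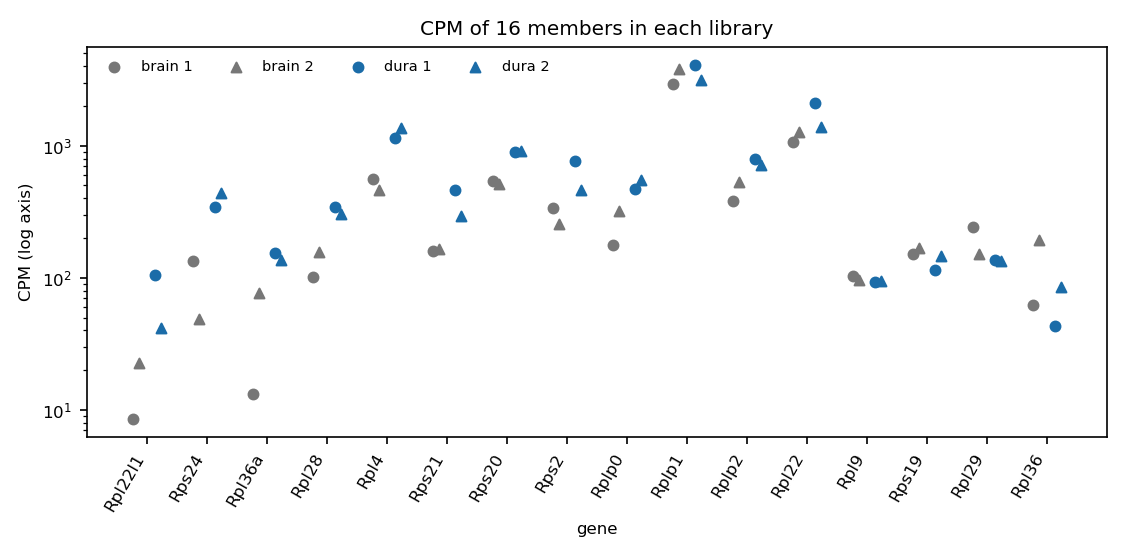
CPM (log axis) of 16 ribosomal protein genes in the 4 libraries, brain in gray and dura mater in blue, circles for replicate 1 and triangles for replicate 2. From Rpl22l1 to Rplp0 both blue points lie above both gray points, whereas Rplp1 and Rpl36 overlap and Rpl9, Rps19 and Rpl29 have both gray points above.

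How well a member was read bore on the spread more than on the median. When the 85 tested members were ordered by mean level, 23 of the 29 lowest, 26 of the 28 in the middle and 27 of the 28 highest were above 0, with medians of 0.69, 0.55 and 0.58. The median gap between brain replicates was 0.94, 0.58 and 0.35 in the same order. Of the 28 highest, 22 members had both dura mater libraries higher and 0 had both brain libraries higher. Across the 85 members Spearman's rho of level and log2 fold change was -0.13, a description over genes that share 4 libraries.

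Paralogs and retrocopies were read beside their partners. Counts here are 3′ reads, so a copy's percent of a pair serves for comparing libraries and not as a ratio of molecules. Rpl22l1, which can take the place of Rpl22 in the ribosome and is repressed by it, was at 8.55 and 22.5 CPM in brain ECs and at 104 and 41.8 CPM in dura mater ECs, the largest log2 fold change of all members with the 4 libraries together (2.22, SE 1.55, edgeR adjusted p 0.798). It ran from 1.28 without dura mater replicate 1 to 3.03 without brain replicate 2, and at 1.66 without brain replicate 1 it was below that of Rps24. Rpl22 itself was at 1075 and 1272 CPM against 2121 and 1385 CPM (0.58, SE 0.33). Rpl22l1 made up 0.79% and 1.74% of the pair in brain ECs against 4.69% and 2.93% in those of the dura mater, without overlap. With 2 libraries a tissue, an exact permutation test of this share cannot go below p = 0.333. Of the Rpl22l1 3′ end, 63.3% of the 50-base stretches occur in other annotated genes.

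Rps27rt, a retrocopy of Rps27, was the one copy whose percent of the pair was higher in both brain libraries, at 94.4% and 83.2% against 73.8% and 81.6%. Rps27 was at 8.28 and 48.5 CPM in brain ECs and at 107 and 48.0 CPM in dura mater ECs, and Rps27rt at 140 and 240 CPM against 302 and 213 CPM. All 50-base stretches of the Rps27 3′ end and 88.4% of those of Rps27rt occur in another gene, so how these reads were divided is uncertain. The starts of the pair printed above also go on with the same letters after the tract, which 3′ reads do not cover. Rps27l, a p53 target, was at 38.7 and 52.5 CPM against 69.3 and 122 CPM (1.06, SE 0.99). Rpl37rt, a retrocopy of Rpl37, was at 972 and 1080 CPM against 2091 and 1343 CPM (0.74, SE 0.33), and Rpl36al at 106 and 90.6 CPM against 192 and 125 CPM (0.69, SE 0.64). Rps4l was at 7.31 and 208 CPM in brain ECs and at 154 and 89.1 CPM in dura mater ECs, and Rpl7l1 at 36.4 and 3.25 CPM against 19.5 and 55.3 CPM. In Rps4l and Rpl7l1 the brain replicates were further apart than the tissues. The percent of the pair overlapped between tissues for Rps27l, Rpl37rt, Rpl36al, Rps4l and Rpl7l1. Rps19bp1 had 145 counts and 1 count in brain replicates 1 and 2, and 1 and 135 counts in the dura mater replicates, the only member to be read in one replicate and nearly absent from the other in both tissues.

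Ribosomal protein genes leave many processed pseudogenes, and 60 of the 88 members shared at least one 50-base stretch of their last 300 transcript bases with another gene of GENCODE M21. The stretches were taken from 1 transcript per gene, the longest of those best ranked as its principal form. Some of these are long, such as those of Rps15a (5179 bases) and Rps20 (3706 bases). Whether their ends are the ends that the libraries read was not tested. Among 25 tested members that shared no such stretch, 21 were above 0, the median was 0.54, and 16 had both dura mater libraries higher. Among 44 with over 50% of the stretches shared, 40 were above 0 and the median was 0.57. The members lie on 19 chromosomes. The introns or span of 30 of them hold 58 annotated snoRNA genes. Of these 30 hosts, 29 were above 0 with a median of 0.71 and 25 had both dura mater libraries higher, while of the 55 others 47 were above 0 with a median of 0.53 and 31 had both dura mater libraries higher. Members with a pyrimidine run near the RefSeq start (37 tested) and without one (27) had medians of 0.57 and 0.58, those with and without CCGGAA 0.54 and 0.60, and those with and without TATAA 0.67 and 0.55. None of these splits was tested.

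The other parts of the translation machinery were read from fixed lists, in which edgeR called 0 genes at an adjusted p under 0.05. The background over all genes given above applies to each count: 49.8% above 0, 26.2% with both dura mater libraries higher and 7.04% higher at an unadjusted p under 0.05. Of 8 elongation and release factors 8 were above 0 (median 0.89). Both dura mater libraries were higher for 4, the libraries overlapped for the other 4, and 1 had an unadjusted p under 0.05. This was Eef1a1, the factor that brings aminoacyl-tRNA to the ribosome and whose mRNA has a TOP tract. It was at 639 and 631 CPM in brain ECs and at 1582 and 1722 CPM in dura mater ECs (1.38, SE 0.29, edgeR adjusted p 0.168), and both DESeq2 and limma-voom called it. Of 6 further genes with TOP mRNAs or nascent-chain roles 6 were above 0 (median 0.84). Both dura mater libraries were higher for 3, and the libraries overlapped for the other 3. At an unadjusted p under 0.05 there were 2, of which DESeq2 called both, Tpt1 and Vim, and limma-voom Tpt1. Tpt1 was at 1262 and 1067 CPM against 2643 and 2320 CPM (1.09, SE 0.28). Vim encodes an intermediate filament protein that fibroblasts also make. Of 32 initiation factors 23 were above 0 (median 0.55, 13 with both dura mater libraries higher), and 1, Eif4a1, a helicase of the cap-binding complex, had an unadjusted p under 0.05 (1.67, SE 0.48). Neither DESeq2 nor limma-voom called any of them.

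Ribosome biogenesis factors, which process rRNA and assemble the subunits in the nucleolus, were mixed: 19 of 30 were above 0 (median 0.77) and 13 had both dura mater libraries higher. Of the 30 factors 8 were higher at an unadjusted p under 0.05 (7.04% of all genes), DESeq2 called 7 (8.43% of all genes higher) and limma-voom 0, and 17 of the 30 had 7 or fewer counts in some library. Of 10 genes of the mTOR pathway and TOP regulators 4 were above 0 (median -0.08). Tsc1 alone had an unadjusted p under 0.05 and was called by DESeq2, with 0 counts in both brain libraries, and limma-voom called 0. Larp1 was at 313 and 248 CPM in brain ECs and at 169 and 172 CPM in dura mater ECs (-0.72, SE 0.46), so both brain libraries were higher for the gene whose product binds TOP mRNAs. Of 69 tested mitochondrial ribosomal proteins 32 were above 0 (median -0.34), with 4 at an unadjusted p under 0.05, 5 called by DESeq2 and 0 by limma-voom. Of 31 proteasome genes 14 were above 0 (median -0.12), with 0 at an unadjusted p under 0.05 and 0 called by DESeq2 or limma-voom.

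Other features of the libraries differed between the tissues along with the ribosomal proteins. Totals were 13518973 to 16096203 counts. All 12 endothelial markers were read in every library, with 1.16% and 1.35% of counts in brain ECs against 0.923% and 1.20% in those of the dura mater, and edgeR called 1 of them, Cldn5, lower in dura mater ECs. All 12 genes of a list of early response genes that tissue dissociation can induce were above 0, 5 called higher by edgeR, and their share was 0.746% and 0.954% in brain ECs against 3.11% and 3.31% in those of the dura mater. The 9 erythroid markers held 2.66% and 3.63% of counts in brain ECs against 0.218% and 0.114% in those of the dura mater, with 5 called lower and Slc4a1 at 0 counts throughout. The ratio of ribosomal protein shares was 1.43 when the erythroid counts were taken out of the totals. The 6 fibroblast markers held 0.254% and 0.213% against 1.11% and 1.14%, mostly from Mgp, with 4 of 4 tested above 0, Pdgfra at 1 count or fewer and Lum at 4 or fewer. The 8 mural markers held 0.0622% and 0.100% against 0.112% and 0.0603%. The 9 leukocyte markers held 0.00479% to 0.0106% over all libraries with Ptprc at 4 counts or fewer. The 5 oligodendrocyte markers held 0.111% and 0.106% against 0.0269% and 0.0139%, mostly from Mal. The astrocyte and neuron lists held at most 0.0101% and 0.00208%, and the osteoblast list at most 0.0165%. The part of the early response genes, the counts of the erythroid and fibroblast lists and the magnetic enrichment in the ribosomal protein difference was not tested.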

How the data were processed

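RNA of sorted dura mater and brain ECs was sequenced in 2 QuantSeq libraries per tissue. The deposited tables, 1 for each library, hold unscaled whole-number counts for 23282 symbols. The submitters' notes name mm10, Bowtie2 and edgeR, and the study's methods name TopHat and cufflinks; the counting step, annotation and use of strand are not given in the sources used here. Counts were tested with edgeR 4.0.16 (quasi-likelihood, older dispersion estimate) in R 4.3.3, with TMM scaling, filterByExpr, tissue as the only term, a prior count of 2 and Benjamini-Hochberg adjustment over 9347 genes. It stands in for the cufflinks test. SEs were computed from the fold change and its F statistic. Depth was 13518973 to 16096203 counts per library. DESeq2 1.42.0, limma-voom 3.58.1, other scalings and filters, a replicate block and leaving out each library were alternatives. Code was tested on simulated counts. Genome positions and 3′ ends were from GENCODE M21 (GRCm38), matched on symbol for all 88 members, and starts from RefSeq. Lines that repeat a symbol (79 lines of 35 symbols) were tested one by one.

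Members and lists were chosen with earlier results of these data known. Named genes were members called by edgeR; up to 8 in each direction with the largest log2 fold change, no overlap and at least 64 counts in both libraries of the higher tissue; stalk proteins and Rpsa; paralogs and partners; the 6 steadiest; and members at 7 or fewer counts in only 1 replicate. Others (Rpl5, Rpl11, Rpl32, Rpl36, Rps2, Rps6, Rps13, Rps20, Rps21, Rps26, Rps27a, Rps28, Rpl37rt and genes of other lists) were chosen after their values were seen.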

Additional observations from a re-analysis of the deposited data

How the results depend on the processing

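The number of all genes that edgeR called (57) was 1257 in DESeq2, 305 with the newer dispersion estimate, 326 with no filter on low counts, 141 with at least 10 counts in every library, and 80 to 740 when each library was left out. The number of members called (0) was 1 in DESeq2 (Rpl4) and 2 with the newer dispersion estimate (Rpl4 and Rps24). In these fits 12% and 3.26% of all genes were called in either direction. It was 0 under the remaining alternatives that kept all 4 libraries. Member calls are not given for fits that leave 1 library in a tissue. A replicate block in the edgeR model gave 224 genes and 0 members called, and the members' median was 0.58. Deviations from the tissue means in libraries with the same number had a correlation of -0.0171 across tested genes and -0.4707 across members. Members thus tended to deviate in opposite directions in these libraries. Such a correlation cannot tell whether libraries shared a batch, and the numbers were not taken as pairs.

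The members' median log2 fold change (0.57) was 0.34 to 0.58 without single libraries, lowest without dura mater replicate 1, and 0.47 to 0.64 under the other tests, filters and scalings. The median of all genes moved more: it was 0.22 in DESeq2, 0.28 in limma-voom, 0.25 with the block, 0.27 with no filter, 0.14 without dura mater replicate 1 and -0.19 without dura mater replicate 2. Without brain replicates 1 and 2 it was 1.03 and 0.95, above the members' 0.53 and 0.54, but there the filter kept 11591 and 11596 genes in place of 9347. Over the genes of the original test it was 0.32 and 0.29, and over the 4183 other genes with at least 64 counts in every library -0.14 and -0.14, a comparison added after seeing the data. Between 71 and 77 members were above 0 in each of these fits, a count added after seeing the data, as was the median over members with no shared 3′ stretch (0.54). The ratio of shares (1.47) was 1.43 to 1.52. Members without overlap (59) numbered 48 with RLE size factors, 63 with library size alone and 54 without the erythroid counts.

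Single members turned sign when a library was left out. Rps9 ranged from -0.025 (without dura mater replicate 2) to 0.12. Rplp1 ranged from -0.25 to 0.26 and was at -0.11 without brain replicate 1 and -0.25 without dura mater replicate 1. Rpl7 ranged from -0.21 (without dura mater replicate 1) to 0.39. Rps19bp1 ranged from -4.56 to 4.26, with 4.26 without brain replicate 1 and 0.57 without dura mater replicate 1. Rpl7l1 ranged from -0.043 to 3.40, with -0.043 without brain replicate 2 and -0.040 without dura mater replicate 2. Rps4l ranged from -0.81 to 3.98, with -0.81 without brain replicate 1 and -0.42 without dura mater replicate 1. The causes were not tested. A fit that leaves 1 library in a tissue assumes that it varies like the other tissue. The common biological coefficient of variation was 1.39.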
